A study of Mus musculus with 3 samples.

Results

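CC chemokines are small secreted proteins that attract leukocytes through G protein-coupled receptors, and macrophages are among their main sources. They are named for a pair of adjacent cysteines near the start of the mature protein. In macrophages, Toll-like receptor 4 senses lipopolysaccharide, of which lipid A is the active part, and several CC chemokine genes are transcribed downstream of NF-kB, AP-1 and interferon regulatory factors after such stimulation. The 10 genes described here, Ccl2, Ccl3, Ccl4, Ccl5, Ccl6, Ccl7, Ccl8, Ccl9, Ccl12 and Ccl24, were chosen by name and read by gene identifier from 55536 Ensembl genes.

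The samples were 3 biological replicates of macrophages grown from bone marrow of the mouse strain C57BL/6J. Each library was made from ribosome-depleted total RNA of the cytosol, collected 10 minutes after Lipid A was added at 100 ng/ml. There was 1 group, so every comparison is between genes within a library or between replicate libraries, and no value shows what Lipid A changed. All 3 replicates carry 1 donor identifier and no label ties them to separate animals or cultures. The spread given may therefore be technical, and the p-values measure that spread only. Neither the sex nor the age of the animals was recorded.

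The depth was 33825547 gene counts for replicate 1, 54667365 for replicate 2 and 43176007 for replicate 3. All 12 macrophage markers, Adgre1 and Cd68 among them, were at or above 1 TPM (a level per unit of transcript length, scaled to the same total in every library) in every library. The 8 T and NK cell markers summed to between 0.15 and 0.21 TPM, and the 3 erythroid markers had no count. The 7 neutrophil markers summed to 22.4, 35.9 and 33.6 TPM in replicates 1, 2 and 3, led by S100a8 and S100a9, and the 4 monocyte markers to between 9.78 and 12.8 TPM. Protein-coding genes of the nuclear genome held 24.3% ± 1.18 (SD, n = 3) of TPM in a library. Only these are meant below by protein-coding genes in shares, ranks and rescaling. The median gene was higher in replicate 3 than in replicate 1 by 0.12 on the log2 TPM scale, and this shift fell to 0.0056 when TPM was rescaled to the protein-coding genes.

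The cysteine pair that names the family could be read in the coding sequence of all 10 genes. For 9 of them, the 30 bases around it in the coding transcript numbered 201 are given, 5′ to 3′, with the 2 cysteine codons in capitals.
Ccl2: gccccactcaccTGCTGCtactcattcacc
Ccl7: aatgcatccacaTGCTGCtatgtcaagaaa
Ccl8: gctccagtcaccTGCTGCtttcatgtacta
Ccl12: accccagtcacgTGCTGTtataatgttgtt
Ccl4: cctcccacttccTGCTGTttctcttacacc
Ccl5: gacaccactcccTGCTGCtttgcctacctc
Ccl6: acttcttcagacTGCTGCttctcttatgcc
Ccl9: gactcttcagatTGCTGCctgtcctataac
Ccl24: atcccctcatctTGCTGCacgtcctttatt

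The pair was written TGCTGC in 7 of these 9 genes and TGCTGT in Ccl4 and Ccl12. It began at codon 32 to 34 in 7 of them, and later, at codon 50 in Ccl6 and codon 57 in Ccl9. Ccl24 had another adjacent pair further upstream, at codon 19. The coding sequences ran from 91 codons in Ccl5 to 148 in Ccl2 and held 4 to 7 cysteine codons. Over the 45 pairs of genes, global alignment gave a nucleotide identity, gaps counted, of 43.4% to 69.8% with a median of 52.6%. The highest identity was between Ccl3 and Ccl4, followed by Ccl6 and Ccl9 at 66.7%, Ccl7 and Ccl8 at 66.6% and Ccl8 and Ccl12 at 66.4%.

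The family members were nevertheless distinct over short stretches. No run of 31 bases was shared between transcripts of any of these 10 genes. Ccl9 shared 3.98% of its 31-base runs with transcripts of other genes, Ccl6 shared 1.02%, Ccl5 0.539% and Ccl24 0.0775%, and the other 6 genes shared none. In every library, the deposited count of each of the 10 genes was whole within 0.005 and its posterior SD was 0, so that quantification recorded no uncertainty in assigning reads to them. An antisense gene, Gm17268, spans Ccl2 with no count, and another, E230016K23Rik, spans Ccl6 at 0.04 to 0.09 TPM. Neither Ccl2 nor Ccl6 shared a 31-base run, on either strand, with annotated transcripts of its partner. Whether the counting used strand is not given in the sources used here. Antisense RNA outside the annotated exons of these partners therefore cannot be told apart from RNA of Ccl2 and Ccl6.

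Of the 10 genes, 9 were at or above 1 TPM in every library, against 41.6% of 22015 protein-coding genes. Their summed level was 407, 422 and 608 TPM in replicates 1, 2 and 3, a mean of 479 ± 112 (SD, n = 3), and 334, 178 and 208 TPM in the second quantification as deposited. The plot of levels by gene and library shows a range from Ccl6, which ranked 209 among protein-coding genes by mean TPM, to Ccl24, which lay below 1 TPM throughout.

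**Figure D1:**
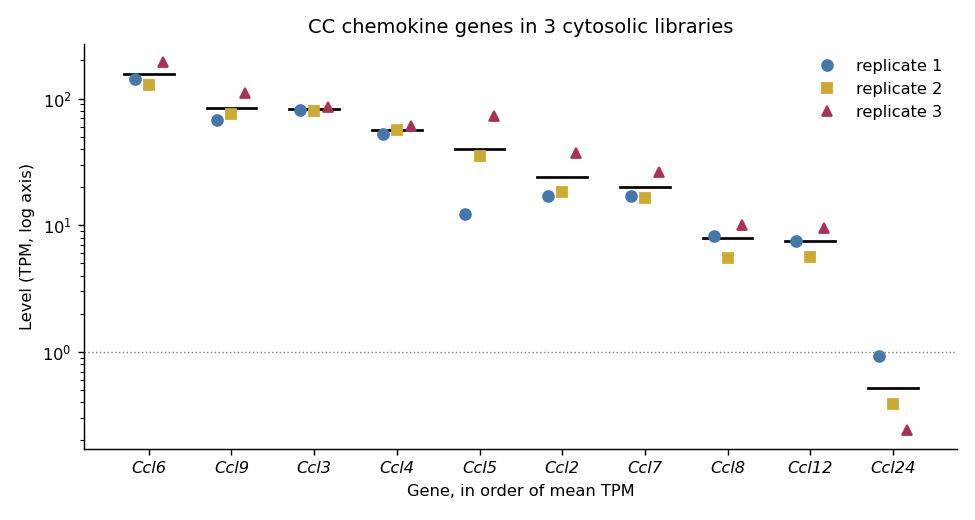
Level of each of the 10 CC chemokine genes in TPM (log axis) in the 3 cytosolic libraries, 1 point per replicate, with the mean as a black bar and 1 TPM as a dotted line. Ccl3 and Ccl4 lie close together in the 3 libraries, Ccl5 runs from 12.2 to 73.0 TPM, and Ccl24 lies under the dotted line.

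Ccl6 and Ccl9, related chemokines of the mouse that act through Ccr1, stood first by mean level. Ccl6 (ENSMUSG00000018927.3, chromosome 11, 83587882 to 83593087, minus strand, mm10) was at 144, 128 and 193 TPM in replicates 1, 2 and 3, a mean of 155 ± 33.8 (SD, n = 3). It alone held 32.5% ± 2.55 (SD, n = 3) of the summed level of the 10 genes. Its lowest library lay above the highest library of every other member. Ccl9 (ENSMUSG00000019122.8, chromosome 11, 83572919 to 83578636, minus strand) was at 67.2, 75.0 and 112 TPM, a mean of 84.6 ± 23.8 (SD, n = 3). Replicate 3 was the highest library for both genes.

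The level of Ccl9 was split between transcripts. The annotation lists 17 transcripts, and 4 genes (Ccl3, Ccl4, Ccl7 and Ccl8) have only 1. The short non-coding transcript Ccl9-202 has 398 bases, of which 359 lie within exons of the coding transcript Ccl9-201. It took 26.4%, 44.8% and 47.3% of the TPM of Ccl9 in replicates 1, 2 and 3, yet only 1.92%, 5.04% and 5.29% of its counts. Because TPM divides by length, the effective length assigned to Ccl9 fell from 2067 bases in replicate 1 to 1621 and 1545 bases in replicates 2 and 3. The coding transcript alone was at 49.4, 41.4 and 58.8 TPM, below Ccl3 in every library. As CPM (counts divided by the library size that TMM, the trimmed mean of M-values, gives), Ccl9 was at 263, 235 and 305, with replicate 2 rather than replicate 1 lowest and a ratio of highest to lowest of 1.30 in place of 1.66. Both the rank of Ccl9 beside Ccl3 and the size of its spread in TPM thus depended on how its reads were divided between these transcripts.

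Ccl6 had a smaller share in a second transcript. The retained-intron transcript Ccl6-202 took 6.41%, 14.7% and 12.5% of its TPM in the first quantification and 29.8%, 41.0% and 35.9% in the second. In the second quantification Ccl9-202 took 52.5%, 58.7% and 55.3%. Of the other genes with several transcripts, Ccl5, Ccl2 and Ccl12 had over 90% of their TPM in the coding transcript numbered 201 in both quantifications and every library.

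**Figure D2:**
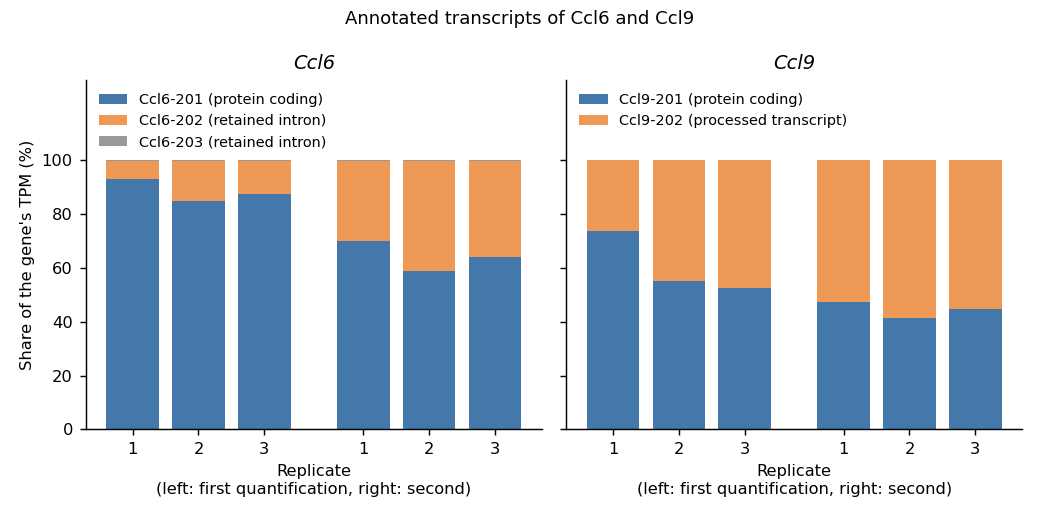
Share of the TPM of Ccl6 and of Ccl9 (percent) assigned to each annotated transcript, for the 3 replicates in the first quantification (left bars) and the second (right bars). The non-coding Ccl9-202 takes 26.4% to 47.3% in the first and 52.5% to 58.7% in the second.

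Ccl3 and Ccl4, inflammatory chemokines that attract monocytes and T cells, were the most even members. Ccl3 (ENSMUSG00000000982.5, chromosome 11, 83647844 to 83649355, minus strand) was at 80.8, 80.1 and 85.6 TPM, and Ccl4 (ENSMUSG00000018930.3, chromosome 11, 83662584 to 83664683, plus strand) at 52.1, 56.8 and 60.6 TPM. The 3 libraries were within a ratio of 1.07 for Ccl3 and 1.16 for Ccl4. The ratio of Ccl3 to Ccl4 within a library was 1.55, 1.41 and 1.41, and the ranges of these genes did not overlap. On this CPM scale, the coefficient of variation of Ccl3 was 3.65%, beside 1.70% from counting alone. In the second quantification as deposited, where the median gene was lower in replicates 2 and 3 than in replicate 1 by 0.96 and 1.09 (log2), the ratio of highest to lowest was 2.20 for Ccl3 and 2.11 for Ccl4, above the 1.83 of Ccl2, and it was 1.04 for both after rescaling to protein-coding genes. In the order of SD of log2(TPM + 1) over 9944 genes at a mean of 1 TPM or more, from the largest down, Ccl3 ranked 8321 and Ccl4 4577.

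Ccl5, known as RANTES and a ligand of Ccr1 and Ccr3, was the most uneven member. It (ENSMUSG00000035042.2, chromosome 11, 83525778 to 83530518, minus strand) was at 12.2, 35.4 and 73.0 TPM in replicates 1, 2 and 3, from 230, 1138 and 1688 counts. The highest library was 5.97 times the lowest, and this ratio was 2.06 without replicate 1 and 2.89 without replicate 3. Its coefficient of variation over scaled counts was 73.0%, beside 4.40% from counting alone, and its SD of log2(TPM + 1) of 1.25 ranked 63 of 9944. Relative to Ccl3 in the same library, Ccl5 was at 0.151, 0.442 and 0.853. Ccl5 lay below Ccl2 in replicate 1, between Ccl2 and Ccl4 in replicate 2 and above Ccl4 in replicate 3. The ratio of replicate 3 to replicate 1 was 6.01 on scaled counts. In the second quantification Ccl5 was at 8.78, 14.1 and 22.8 TPM as deposited, a ratio of 2.60. That was below the 6.82 of Ccl24, the 2.87 of Ccl8 and the 2.78 of Ccl12. After rescaling to protein-coding genes, the ratio of Ccl5 was 5.52.

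T and NK cells are known for high Ccl5, and their defining markers were at or near 0: Cd3e had 0, 0 and 0.09 TPM, Nkg7 0, 0.03 and 0.04 TPM, and Gzma no count in any library. Cell division genes were uneven in the same direction, with 6 of 6 listed (Mki67, Top2a, Cdk1, Ccnb1, Birc5, Pcna) highest in replicate 3 (66.1% over the 9944 genes) and a summed level of 69.1, 79.7 and 133 TPM. The summed neutrophil markers given above were also lowest in replicate 1, with S100a8 at 8.52, 13.8 and 13.1 TPM and Ly6g without a count. The listed transcripts retained in the nucleus (Malat1, Neat1, Xist) ran the other way, with a sum of 648, 427 and 341 TPM. The 12 interferon-stimulated genes listed summed to 533, 438 and 419 TPM, highest in replicate 1, where Ccl5 was lowest. The part of any of these in the spread of Ccl5 was not tested. In bulk samples fewer expressing cells and less RNA per cell cannot be told apart.

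The monocyte chemoattractants Ccl2, Ccl7, Ccl12 and Ccl8 formed a lower tier. Ccl2 (ENSMUSG00000035385.5, chromosome 11, 82035571 to 82037453, plus strand), the main ligand of Ccr2, was at 16.9, 18.3 and 37.4 TPM. Its highest library was 2.21 times its lowest, replicate 3 stood apart from the other 2, and without it the ratio was 1.08. Ccl7 (ENSMUSG00000035373.2, chromosome 11, 82045712 to 82047525, plus strand), which also acts through Ccr2, was at 17.0, 16.5 and 26.4 TPM. Ccl2 and Ccl7 were level in replicate 1, at a ratio of 0.995, and Ccl2 was higher in replicates 2 and 3, at 1.11 and 1.42.

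Ccl8 and Ccl12 kept close to each other. Ccl8 (ENSMUSG00000009185.2, chromosome 11, 82115185 to 82116799, plus strand), a ligand of Ccr8 in the mouse, was at 8.18, 5.50 and 9.99 TPM. Ccl12 (ENSMUSG00000035352.3, chromosome 11, 82101845 to 82103400, plus strand), a ligand of Ccr2, was at 7.55, 5.62 and 9.49 TPM. Their ratio within a library was 1.08, 0.979 and 1.05, although each gene alone varied by a ratio of 1.82 and 1.69 between libraries. Both were lowest in replicate 2 and highest in replicate 3. In replicates 1, 2 and 3 these levels rested on 142, 165 and 215 counts for Ccl8 and 143, 182 and 222 for Ccl12. Ccl2, also in this gene cluster, did not keep pace with Ccl12, at ratios of 2.24, 3.26 and 3.94.

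Ccl8 and Ccl12 lie next to each other, and since their levels ran together the 250 bases before each start are given, from RefSeq on GRCm38.p6, plus strand, with a TATA box (TATAAA) in capitals. The Ccl12 stretch is chr11:82101595-82101844 and the Ccl8 stretch is chr11:82114935-82115184.
Ccl12: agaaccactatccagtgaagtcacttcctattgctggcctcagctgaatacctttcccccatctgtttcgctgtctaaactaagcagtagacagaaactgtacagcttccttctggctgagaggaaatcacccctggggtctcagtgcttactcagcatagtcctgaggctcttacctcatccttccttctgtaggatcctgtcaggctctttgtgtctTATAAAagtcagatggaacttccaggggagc
Ccl8: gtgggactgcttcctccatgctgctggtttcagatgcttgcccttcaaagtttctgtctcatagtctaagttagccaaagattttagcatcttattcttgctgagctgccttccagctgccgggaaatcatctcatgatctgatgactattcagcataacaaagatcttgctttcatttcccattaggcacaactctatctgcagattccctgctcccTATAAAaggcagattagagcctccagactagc

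The TATA box began 31 bases before the start of Ccl12 and 32 before that of Ccl8. These 2 stretches were identical at 57.5% of aligned positions, gaps counted, the highest of the 10 pairs among the 5 members with an entry (Ccl3, Ccl6, Ccl8, Ccl9 and Ccl12), whose other pairs were at 48.1% to 54.2%. Motifs were searched on both strands in 300 bases, from 250 before to 50 after the start. TATAAA was found in 3 of 5 (Ccl8, Ccl9 and Ccl12), against 13.6% of 32851 promoters. A simple NF-kB pattern, GGGNNNNNCC, was found in Ccl9 only, against 50.8% of promoters, and the AP-1 pattern TGANTCA also in Ccl9 only, against 7.81%. Neither GAAANNGAAA, an interferon response pattern held by 3.44% of promoters, nor TTGCNNAA, a C/EBP pattern held by 10.8%, was found in any of the 5. In Ccl9 the 2 TATAAA matches nearest the start overlap each other on opposite strands. A link between these sequences and the levels was not tested, and Ccl2 and Ccl7, of the same cluster as Ccl8 and Ccl12, had no entry.

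Ccl24, an eosinophil attractant that acts through Ccr3, was the lowest member. It (ENSMUSG00000004814.10, chromosome 5, 135569937 to 135573049, minus strand) was at 0.92, 0.39 and 0.24 TPM, from 27, 35 and 19 counts. It was the only member highest in replicate 1 and lowest in replicate 3. The ratio of highest to lowest library was 3.83 in TPM (1.63 without replicate 1) and 1.74 on scaled counts, where replicates 1, 2 and 3 were at 0.768, 0.662 and 0.442 CPM. Between these scales stood the division of a few reads between its 2 coding transcripts: Ccl24-202 took 82.4%, 25.6% and 4.17% of the TPM, on 15.6, 3.62 and 0.36 estimated counts. At this depth the levels of Ccl24 were not distinguishable between libraries.

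The counting test asked which genes differed between the 3 libraries by more than counting error. It was a chi-square test of gene counts against TMM effective library sizes, with Benjamini-Hochberg adjustment over every gene whose counts summed to at least 30. It called 9 of the 10 genes, where it called 50.1% of 13494 genes in all, so a call by itself was common. The adjusted p was 2.05e-194 for Ccl5, 1.69e-84 for Ccl2 and 0.0202 for Ccl3. Ccl24 was not called, with an adjusted p of 0.243. With DESeq2 size factors or total counts in place of TMM, Ccl3 was not called.

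The size of the spread set the members apart from one another more than the call did. Among genes at a mean of 1 TPM or more, 2 of the 9 CC chemokine genes, Ccl5 and Ccl2, reached 2-fold between their lowest and highest library, against 3.59% of 9944 genes. Ccl24 also met this ratio in TPM but lay under that mean. The median SD of log2(TPM + 1) was 0.36 over the 9 genes and 0.10 over all 9944. The common coefficient of variation between these libraries, from an intercept-only edgeR model, was 14.4%, with counting error left out. On scaled counts, Ccl5 (73.0%), Ccl2 (42.3%), Ccl7 (23.7%), Ccl8 (23.2%), Ccl12 (20.7%) and Ccl6 (16.8%) lay above that value. Ccl9 (13.2%), Ccl4 (9.34%) and Ccl3 (3.65%) lay below it. These values of single genes include counting error. By the per-gene value of the same edgeR model, which leaves it out, Ccl6 (12.1%) lay below 14.4%. The other genes listed kept their side.

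**Figure D3:**
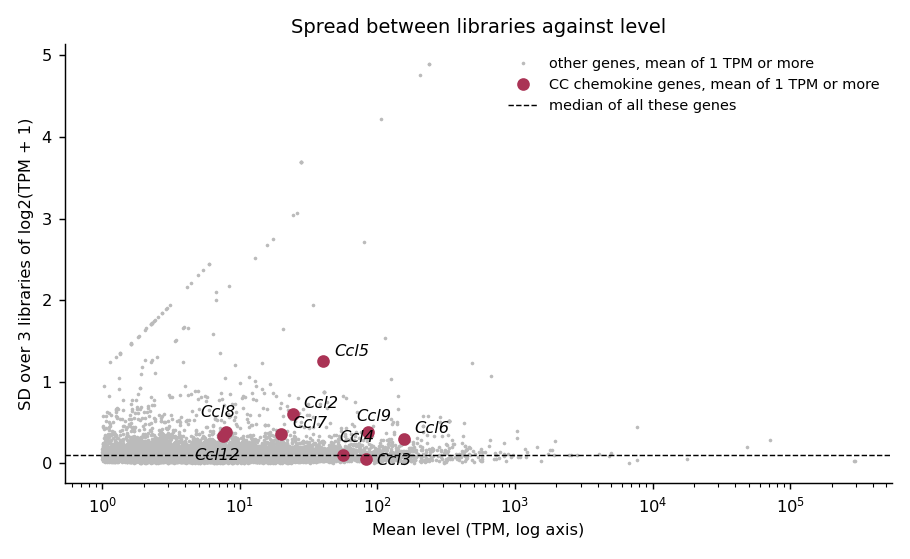
SD of log2(TPM + 1) over the 3 libraries against mean level in TPM (log axis) for the 9944 genes at a mean of 1 TPM or more, with the 9 CC chemokine genes in red and the median of all genes, 0.10, as a dashed line. Ccl5 lies far above the line at 1.25 and Ccl3 below it at 0.05.

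All 9 CC chemokine genes at a mean of 1 TPM or more were highest in replicate 3. So were 66.1% of the 9944 genes. On the log2 TPM scale the median gene was higher there than in replicate 1 by 0.12 and than in replicate 2 by 0.13. The total of TPM is the same in every library. With TPM rescaled to the protein-coding genes, 7 of the 10 were highest in replicate 3, against 36.3% of genes. Ccl3 was then highest in replicate 1, at 342, 340 and 334, and Ccl4 in replicate 2, at 221, 241 and 236. Ccl5, at 51.8, 151 and 285, and Ccl2, at 71.5, 77.8 and 146, kept their order of libraries on this scale.

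In the order of mean levels, from Ccl6 through Ccl9, Ccl3, Ccl4, Ccl5, Ccl2, Ccl7, Ccl8 and Ccl12 to Ccl24, 4 of 9 neighbouring pairs had ranges that did not overlap. These were Ccl6 over Ccl9, Ccl3 over Ccl4, Ccl7 over Ccl8 and Ccl12 over Ccl24. In each of these 4 the order was the same in 3 of 3 libraries, with p = 0.25 by an exact permutation test of signs (two-sided), the smallest p that 3 libraries allow, and 0.56 after Benjamini-Hochberg adjustment over the 9 pairs. The log2(TPM + 1) difference was 0.88 ± 0.18 (SD, n = 3) between Ccl6 and Ccl9 and 0.53 ± 0.08 between Ccl3 and Ccl4. It was 1.24 ± 0.24 between Ccl7 and Ccl8 and 2.50 ± 0.51 between Ccl12 and Ccl24. The other 5 neighbouring pairs did not differ beyond their spread. Ccl9 and Ccl3 differed by 0.01 ± 0.33 (SD, n = 3) and Ccl8 and Ccl12 by 0.05 ± 0.07.

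The summed level differed between the chromosomal clusters of these genes. Of the 10 genes, 9 lie on chromosome 11 in 2 clusters separated by 1409 kb, and Ccl24 lies on chromosome 5. The Ccl2 to Ccl8 cluster spans 81.2 kb (82035571 to 82116799) and held 12.3% ± 1.41 (SD, n = 3) of the summed level, at 49.6, 46.0 and 83.2 TPM. The Ccl5 to Ccl4 cluster spans 139 kb (83525778 to 83664683) and held 87.6% ± 1.38 (SD, n = 3), at 356, 376 and 524 TPM. The ranges of these 2 sums did not overlap, but those of single genes did. Ccl5, at 12.2 to 73.0 TPM, spanned the range of Ccl2, at 16.9 to 37.4 TPM. A link between position and level was not tested. Ccl5 lies at an end of the second cluster, and the most even genes, Ccl3 and Ccl4, lie at its other end. Within the first cluster Ccl11, an eosinophil attractant between Ccl7 and Ccl12, had no count in any library, and no other annotated gene inside either cluster reached 1 TPM.

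**Figure D4:**
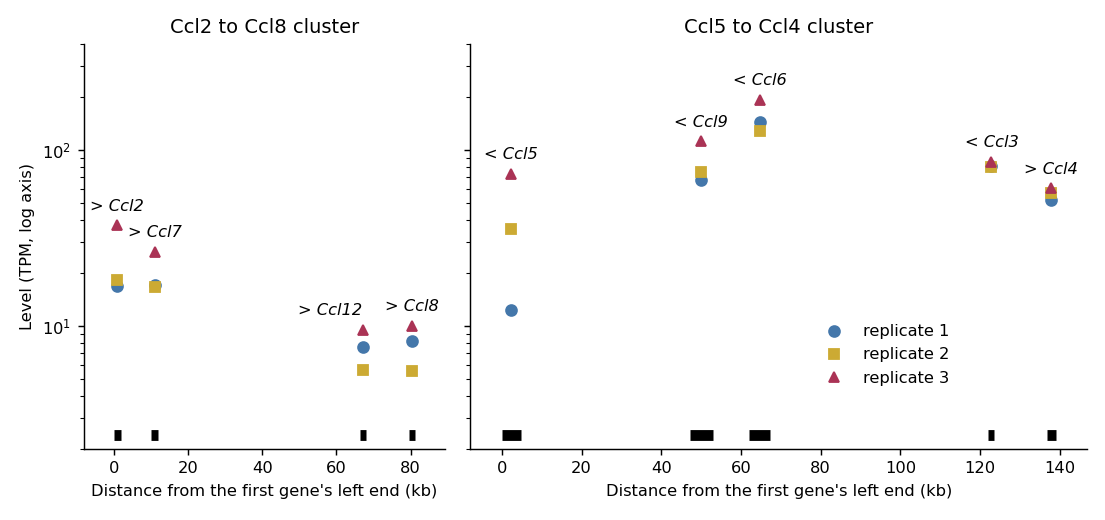
Level in TPM (log axis) of the genes of both chromosome 11 clusters against distance in kb from the left end of the first gene, 1 point per replicate, with black bars for the genes and arrowheads for the strand. Ccl6 is highest at 128 to 193 TPM, Ccl12 and Ccl8 lie between 5.50 and 9.99 TPM, and Ccl5 has the widest range.

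The 3′ ends of these transcripts were searched for AU-rich elements, short motifs known for marking cytokine messages for rapid decay. The pentamer ATTTA was present in 7 of the 10 3′ untranslated regions, with 5 copies each in Ccl3, Ccl9 and Ccl12, 4 in Ccl6, 2 each in Ccl4 and Ccl7 and 1 in Ccl2. Ccl5, Ccl8 and Ccl24 had none. The share of all genes that hold the pentamer was not computed, so this count alone does not set these genes apart. The median density of the pentamer was 3.94 per kb over the 10 genes. It was 1.27 per kb over 9278 protein-coding genes at 1 TPM or more. These densities were not matched for length. The nonamer TTATTTATT was found in none of the 10, against 6.91% of those genes, and 2.16% of those with 250 to 500 bases of 3′ untranslated region. The median length of that region was 356 bases in the 10 genes and 942 bases in the larger set. Of the genes without the pentamer, the ratio of highest to lowest library in TPM was 5.97 for Ccl5, 3.83 for Ccl24 and 1.82 for Ccl8. Among the genes with it, this ratio ran from 1.07 for Ccl3 to 2.21 for Ccl2. On scaled counts the ratio was 6.01 for Ccl5, 1.74 for Ccl24 and 1.60 for Ccl8. On that scale it ran from 1.08 for Ccl3 to 2.10 for Ccl2 among the genes with the pentamer. A part of the pentamer in the spread was not tested.

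The profiles most like those of Ccl2, Ccl5 and Ccl24 were found by the root-mean-square difference of centred log2(TPM + 1) over the 3 libraries, among 9935 genes. For Ccl2 they were Cdkn3 (0.0086), a phosphatase gene of the cell cycle, at 1.00, 1.15 and 3.33 TPM, Tpx2 (0.018), a spindle assembly gene, and Uhrf1 (0.019), which maintains DNA methylation. The nearest other member to Ccl2 was Ccl9, at 0.19. No gene came as near to Ccl5: the nearest were the histone gene Hist1h2af (0.22), at 4.48, 9.77 and 28.9 TPM, the pseudogene Rpl39-ps (0.22) and the histone gene Hist1h2ai (0.23), and of the members Ccl2, at 0.64. Histone and ribosomal protein genes have near-identical copies, so their own levels are uncertain. For Ccl24 the nearest were F13a1 (0.022), at 19.3, 13.3 and 12.2 TPM, Gm24146 (0.023) and Tlr2 (0.024), at 23.0, 16.7 and 14.2 TPM. Adding 1 to TPM shrinks the changes of genes near or below 1 TPM, such as Ccl24 and Cdkn3. A near profile on this scale therefore does not mean an equal ratio of TPM between libraries: Ccl24 itself was at 0.92, 0.39 and 0.24 TPM. Each likeness rests on 3 libraries and is a description.

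The other CC chemokine genes were nearly silent. Of 14 such genes, 10 had no count in any library, among them Ccl1, Ccl17 and Ccl20, which allows a level of up to 0.0339 to 0.865 TPM per library, the level of 3 counts, depending on gene length and library. This limit covers counting error only. Ccl25, at 1.61, 1.18 and 1.12 TPM, was the only such gene at a mean of 1 TPM or more. Ccl22, a macrophage and dendritic cell product, was at 0.59, 0.75 and 0.54 TPM. The 14 genes together summed to 2.15 to 2.60 TPM, below each of the members except Ccl24.

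Receptors for the chemokines reached at most 13.2 TPM in a library, above Ccl8, Ccl12 and Ccl24 and below the other 7 chemokine genes by mean level. Of 16 genes for CC and atypical chemokine receptors, 3 had no count. Ccr1, which binds Ccl3, Ccl5, Ccl6 and Ccl9, was at 9.77, 8.56 and 13.2 TPM. The chemerin-binding receptor Ccrl2 was at 6.37, 5.46 and 6.42 TPM, and Ccr2, the receptor of Ccl2, Ccl7 and Ccl12, at 3.53, 3.76 and 3.53 TPM. Ccr3, the receptor of Ccl24, was at 0.78, 0.59 and 1.10 TPM. The counting test called 7 of the 9 receptor genes it could test, beside 50.1% of all genes tested.

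Genes that carry the signal from these receptors were all expressed, with 19 of 19 at a mean of 1 TPM or more. The highest were the G protein subunit Gnai2 (157 ± 7.51 TPM, SD, n = 3), the GTPase Rac1 (110 ± 5.71 TPM) and the G protein subunits Gnb2 (93.7 ± 6.40 TPM) and Gnb1 (73.9 ± 1.60 TPM). The receptor kinases Grk3 (1.01 ± 0.341 TPM) and Grk5 (1.01 ± 0.161 TPM) were lowest. The counting test called 15 of the 19 (50.1% of all genes tested), and 0 of the 19 reached 2-fold between libraries (3.59% of all genes at a mean of 1 TPM or more). Of 8 early response genes, 8 were called, beside the same 50.1%, and 5 were highest in replicate 3, beside 66.1% of genes, with a summed level of 136, 87.6 and 140 TPM. Replicate 2 was thus the lowest library for the summed level of that list.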

How the data were processed

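Ribosome-depleted total RNA-seq libraries of 3 replicates of the cytosolic fraction were used, each from 1 µg of RNA at a size range of 250 to 400, per the labels. Per the file headers and text files, the authors aligned reads to the mm10 transcriptome (annotation M21) and deposited expected counts and TPM per gene and per transcript, laid out as RSEM does. A second transcript table holds estimated counts and TPM that the authors made without alignments, laid out as kallisto does. Aligner, quantifier, version and strandedness: not given in the sources used here.

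Members and lists were chosen with earlier results of these data known. All 10 members are named, with other CC chemokine and receptor genes at a mean of 1 TPM or more, up to 4 highest and 2 lowest signalling genes, up to 4 lower genes by name (Ccl1, Ccl17, Ccl20 and Ccl22), and the 3 nearest profiles; Ccr3 and Ccl11 were named after their values were seen. Some items that this rule names are not reported here. Non-gene entries were left out of library sizes. TPM was compared as deposited and as log2(TPM + 1), which understates differences of low genes. Expected counts were rounded for the chi-square counting test (summed count of 30 or more, adjusted p under 0.05), which was tested on simulated data. With 1 group, no edgeR quasi-likelihood contrast exists. Coding sequences, 31-base runs and AU-rich elements come from the M21 transcripts, 1 transcript per gene except for the runs, and promoters from RefSeq (GRCm38.p6), which held 5 members. Tools were edgeR 4.0.16 and DESeq2 1.42.0 in R 4.3.3, and scipy 1.17.1 and Biopython 1.88 in Python 3.11.15. Alternatives varied scaling, quantification, filters, pseudocount and libraries.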

Additional observations from a re-analysis of the deposited data

How the results depend on the processing

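No paired analysis was possible because there is only 1 group. Leaving out each library in turn gave 6 to 7 members called by the counting test (9 with all 3), 2 to 3 with a 2-fold range (3 with all 3) and 4 to 6 neighbouring pairs without overlap (4 with all 3). The share of all genes called was then 27.5%, 42.2% and 35.5% without replicates 1, 2 and 3, and the share with a 2-fold range 1.95%, 2.94% and 1.61%. Counts of members with a 2-fold range are here over all 10, Ccl24 included. The share of genes with all 3 libraries, 3.59%, covers only genes at a mean of 1 TPM or more, which Ccl24 does not reach. Besides Ccl24, the test missed Ccl3 and Ccl4 without replicate 1, Ccl3, Ccl8 and Ccl12 without replicate 2, and Ccl7, Ccl8 and Ccl12 without replicate 3. Without replicate 3, Ccl2 no longer had a 2-fold range. Other scalings, filters or quantifications gave 8 to 10 members called, beside 31.7% to 74.6% of all genes tested. All 10 were called only in the second quantification with total counts, where the share of genes was 74.6%. Members at 1 TPM or more in every library stayed at 9, and 7 passed a minimum of 10 TPM. In the second quantification as deposited, the median gene lay lower than in replicate 1 by 0.96 in replicate 2 and 1.09 in replicate 3 (log2), and there the mean TPM of 8 members moved by more than 1 SD, 7 members had a 2-fold range, Ccl3 and Ccl4 among them (70.6% of genes), 1 was highest in replicate 3 (1.31% of genes) and 2 neighbouring pairs did not overlap. Rescaled to protein-coding genes, an alternative chosen after seeing the data, it gave 2 members with a 2-fold range, Ccl5 and Ccl24, with Ccl2 just under at a ratio of 1.998, and 7 highest in replicate 3 (36.3%); the count of members highest in replicate 3 was also chosen after seeing the data. Levels in TPM of low genes, Ccl24 above all, are limited by depth.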
